A study of Arabidopsis thaliana with 6 samples.

Results

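The genes described here are 6 Arabidopsis thaliana genes of the salicylate defence pathway, each read by 1 probe set of the Affymetrix ATH1 array out of 22810 probe sets in the table. They were taken by probe set identifier: 266385_at for PR1, 251625_at for PR2, 259925_at for PR5, 262177_at for ICS1, 252060_at for PAD4 and 252373_at for EDS1. The first 3 are response markers and the other 3 act upstream in the pathway. The study hybridised RNA from whole rosettes of 2 genotypes, with 3 arrays each. The double mutant, labelled as lacking APK1 and APK2, came from a cross of the lines salk_053427 and salk_093072, and the wild type was Col-0. APK1 and APK2 are APS kinases, enzymes that make PAPS, the sulfate donor of sulfotransferases, and the arrays asked which transcripts differ when both are lost. Seeds of both genotypes were first kept cold in water for 3 days. All plants were 35 days old, grown with no further treatment stated at 22 °C and 60% humidity with a 10 h day and a 14 h night, and harvested 4 h after the lights came on. Each array held RNA from a separate pool of 10 rosettes. The labels describe the mutant as a single cross, so other insertion lines of these genes were not compared. Transcripts of APK1 and APK2 were not analysed here, because the probe table used names no probe set for them, and the labels were therefore not checked against the disrupted genes.

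Salicylate is the hormone that Arabidopsis accumulates when it detects pathogens such as powdery mildews or Pseudomonas syringae. The plastid enzyme ICS1 makes its precursor isochorismate, and the lipase-like proteins EDS1 and PAD4 form a complex that promotes ICS1 expression and is itself raised by salicylate. Salicylate then acts through NPR1 and TGA transcription factors to switch on genes for secreted pathogenesis-related proteins, of which PR1, PR2 and PR5 are the usual readouts.

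The 6 arrays had near-equal median signals, 32.5 to 34.5, in the linear MAS5 units that the authors scaled to 1 mean per array. All 6 probe sets lay above the low-signal limit on 6 of 6 arrays. That limit was the 40th percentile of each array, 16.9 to 19.4. Of 13848 probe sets with enough signal to be tested, 5.79% were called higher in the double mutant at an adjusted p under 0.05 (limma, Benjamini-Hochberg), and 5.55% lower. The labelled tissue could be checked with few markers. Of 15 leaf markers 2 were named, RCA and SBPASE, and both were bright in each genotype, with mean signals of 6277 and 2412 in the mutant and 6216 and 3023 in the wild type. SBPASE was called lower in the mutant (log2 change −0.33, limma adjusted p = 0.0245), without overlap between the genotypes, while RCA was not called (adjusted p = 0.950). The SBPASE call held without mutant replicate 1 (0.0153) and was lost without any other single array, with adjusted p-values of 0.0583 to 0.0919. Whether the SBPASE difference has a part in the results below was not tested. Of 8 root markers 3 were named, and their highest signal on any array was 12.7. No marker on the flower and senescence lists was named. The 3′ to 5′ signal ratio of GAPDH, a measure of RNA integrity, was 1.87, 2.06 and 2.02 on the mutant arrays and 2.41, 1.99 and 2.04 on the wild-type arrays, so the groups overlapped. The same ratio of actin was much larger, 34.4, 23.4 and 25.4 on the mutant arrays and 27.0, 23.5 and 24.5 on the wild-type arrays. Mutant replicate 1 lay above every wild-type array in it, and mutant replicate 2 below each of them. The part of RNA quality in the results was not tested, and without mutant replicate 1 the folds were 3.98 for PR1, 3.59 for PR2, 2.82 for PR5, 2.17 for ICS1, 1.47 for PAD4, whose call was then lost (adjusted p = 0.0554), and 1.47 for EDS1.

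All 6 genes had higher signals in the double mutant, and all 6 passed the test, against 5.79% of all tested probe sets called higher. The PAD4 call had the largest limma adjusted p of the 6 (0.0351) and was lost when any of 4 arrays was left out. PR1, PR2 and PR5 rose by 2.78-fold to 3.85-fold, the salicylate synthesis gene ICS1 by 2.23-fold, and EDS1 and PAD4 by 1.44-fold each. For each of the 6, every mutant array lay above every wild-type array. That was so for 13% of all tested probe sets. In whole rosettes, more RNA per cell and more cells that express a gene cannot be told apart.

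PR1 encodes a small secreted protein and is the most widely used marker of the salicylate response. Its signal was 2813, 3225 and 3006 on the double-mutant arrays, against 742, 727 and 888 on the wild-type arrays. The lowest mutant array was 3.17 times the highest wild-type array. PR1 averaged 3015 ± 206 in the mutant and 786 ± 88.5 in the wild type (SD, n = 3 each), a 3.85-fold rise (95% interval 3.35 to 4.42, limma adjusted p = 3.44e-08). Only 62 of the 13848 tested probe sets had a larger log2 increase than PR1.

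PR2, also called BGL2, encodes a secreted beta-1,3-glucanase that cleaves a polymer of fungal cell walls. Its signal was 2190, 2700 and 2441 in the double mutant, against 610, 671 and 895 in the wild type. The wild-type arrays were less even than those of PR1, with replicate 3 well above the other two, but still far below any mutant array. Mean signals were 2443 ± 255 in the mutant and 725 ± 150 in the wild type (SD, n = 3 each), a 3.40-fold rise (95% interval 2.82 to 4.11, limma adjusted p = 1.16e-06).

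PR5 encodes a thaumatin-like protein with antifungal relatives. Its signal was 2898, 2692 and 3396 in the double mutant, against 865, 1073 and 1329 in the wild type. The groups were separate, with the lowest mutant array at 2.02 times the highest wild-type array. PR5 averaged 2995 ± 362 in the mutant and 1089 ± 232 in the wild type (SD, n = 3 each), a 2.78-fold rise (95% interval 2.28 to 3.40, limma adjusted p = 1.00e-05).

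Among the upstream genes, ICS1 rose most. Its product, isochorismate synthase, starts the pathway that supplies most salicylate after infection. ICS1 gave 178, 144 and 185 in the double mutant, against 65.7, 77.5 and 83.3 in the wild type. All mutant arrays stood clear of the wild type, and mutant replicate 2 was the closest to it. The means were 169 ± 22.3 in the mutant and 75.5 ± 8.93 in the wild type (SD, n = 3 each), a 2.23-fold rise (95% interval 1.83 to 2.72, limma adjusted p = 7.00e-05).

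EDS1 showed a smaller but even rise. Its signal was 163, 165 and 182 in the double mutant, against 122, 114 and 117 in the wild type. These are the tightest replicates of the 6 genes. EDS1 averaged 170 ± 10.5 in the mutant and 118 ± 3.89 in the wild type (SD, n = 3 each), a 1.44-fold rise (95% interval 1.24 to 1.67, limma adjusted p = 0.00379).

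PAD4, the partner of EDS1, had a fitted change of the same size with more spread. Its signal was 84.8, 82.1 and 98.1 in the double mutant, against 56.4, 54.9 and 74.0 in the wild type. The groups came close, with the lowest mutant array only 1.11 times wild-type replicate 3. The means were 88.3 ± 8.60 in the mutant and 61.8 ± 10.6 in the wild type (SD, n = 3 each), a 1.44-fold rise (95% interval 1.15 to 1.79, limma adjusted p = 0.0351). PAD4 missed the threshold when any of 4 arrays was left out. Its limma adjusted p was then 0.0554 without mutant replicate 1, 0.144 without mutant replicate 3, 0.116 without replicate 1 of the wild type and 0.134 without replicate 2 of the wild type. The full range across alternatives was 0.0173 to 0.144.

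**Figure D1:**
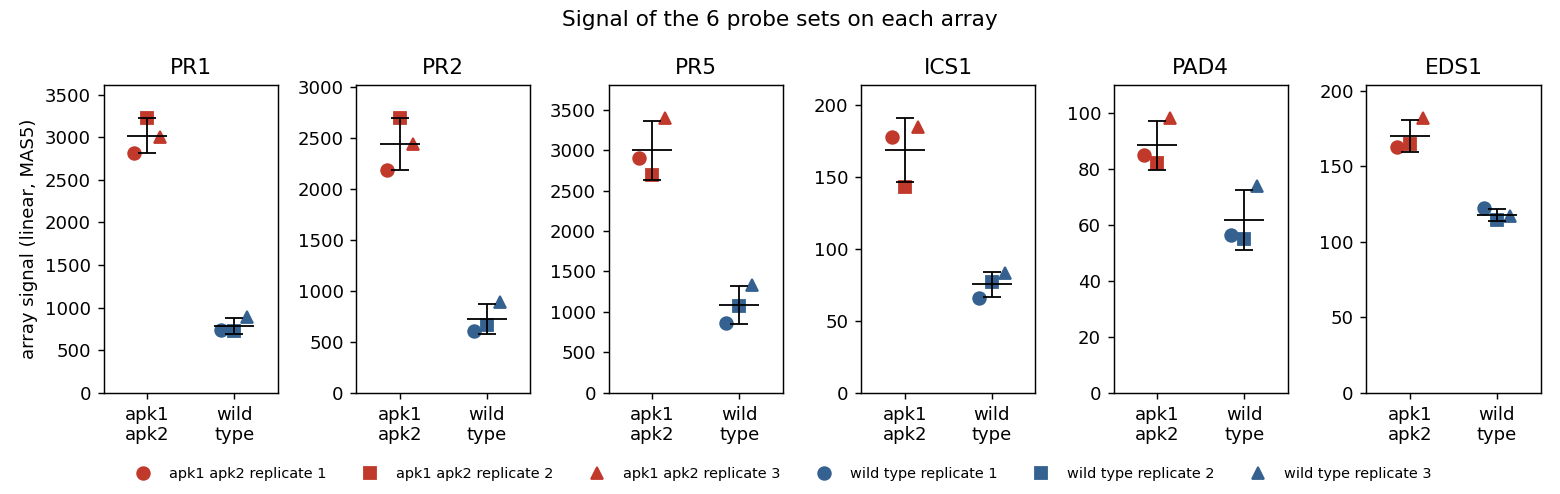
Array signal in linear MAS5 units for the 6 genes, with the apk1 apk2 double mutant left of the wild type in each panel. Points are single arrays with the marker shape giving the replicate, and bars show the mean and SD of 3 arrays. Each axis starts at 0 and has its own scale. Mutant and wild-type points are far apart for PR1, PR2, PR5 and ICS1, and close for PAD4.

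The markers had larger changes than the upstream genes on every mutant array when each set was averaged. Averaged over PR1, PR2 and PR5, the log2 signal relative to the wild-type mean was 1.63, 1.76 and 1.79 on the mutant arrays and −0.21, −0.07 and 0.27 on the wild-type arrays. Averaged over ICS1, PAD4 and EDS1, it was 0.73, 0.61 and 0.87 on the mutant arrays and −0.09, −0.05 and 0.14 on the wild-type arrays. The marker average therefore exceeded the upstream average by 0.90, 1.15 and 0.92 in the mutant and by −0.12, −0.01 and 0.13 in the wild type. These averages are descriptions with no test, since the genes were chosen with results of these data known. The markers were also brighter than the upstream genes. With an offset of 16, the log2 changes of ICS1, PAD4 and EDS1 went from 1.16, 0.52 and 0.53 to 1.01, 0.43 and 0.47. Those of PR1, PR2 and PR5 went from 1.94, 1.77 and 1.47 to 1.92, 1.74 and 1.46. The part of signal level in the difference between the sets was not tested.

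Within the markers, PR1 had the largest fitted change and PR5 the smallest. The log2 change of PR1 exceeded that of PR2 by 0.18, and the arrays of the genotypes overlapped in this difference (exact permutation test, two-sided p = 0.2). PR1 exceeded PR5 by 0.47 and PR2 exceeded PR5 by 0.29, without overlap but by small margins. For PR1 over PR5 the lowest mutant array was at 0.28 and the highest wild-type array at 0.23. For PR2 over PR5 they were at 0.11 and 0.08. The smallest gap between a marker and an upstream gene was that of PR5 over ICS1. On the log2 scale it was 0.19, 0.39 and 0.36 on the mutant arrays and −0.12, −0.04 and 0.16 on the wild-type arrays, a difference of 0.31 in which the lowest mutant array barely passed the highest wild-type array. PR1 over EDS1 stood clear, with 1.38, 1.56 and 1.31 in the mutant and −0.13, −0.06 and 0.19 in the wild type.

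Among the upstream genes, the log2 change of ICS1 exceeded that of PAD4 by 0.64 and that of EDS1 by 0.63. PAD4 and EDS1 differed by −0.002, and their arrays overlapped (exact permutation p = 1). In all, 15 pairs of genes were compared in this way, and 13 had an exact p of 0.1. That is the smallest p that 3 against 3 arrays can give, so no pair could pass 0.05, and adjusted over the 15 pairs it was 0.115. The pairs reuse the same genes, which were chosen with results of these data known, so the pairs are not independent. The count is a description, and the share among pairs of other probe sets was not computed.

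**Figure D2:**
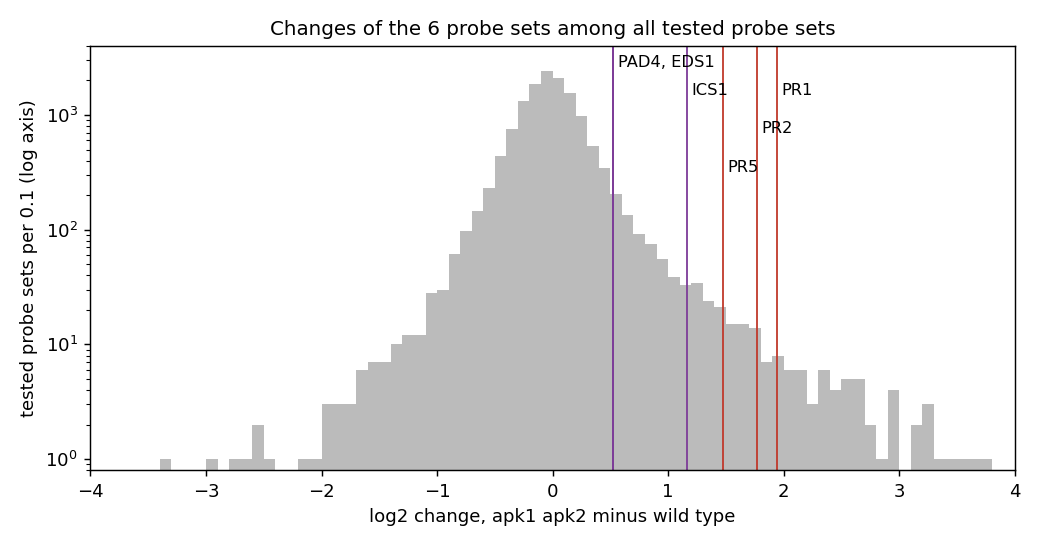
Distribution of the log2 change, apk1 apk2 minus wild type, over the 13848 tested probe sets in bins of 0.1, with counts on a log axis. Lines mark PR1, PR2 and PR5 in red and ICS1, PAD4 and EDS1 in purple, and all 6 lie right of 0. Beyond the axis limits of −4 and 4 there were 6 probe sets above and 2 below.

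The replicate spread differed between genes. The within-genotype SD of the log2 signal was 0.07 for EDS1, 0.13 for PR1, 0.19 for ICS1, 0.19 for PAD4, 0.23 for PR2 and 0.25 for PR5, against a median of 0.16 over all tested probe sets. A larger SD than that of EDS1 was found in 91.9% of the other tested probe sets, and a larger one than that of PR5 in 23.4%. The coefficient of variation of the markers was lower in the mutant. It was 6.85% for PR1, 10.4% for PR2 and 12.1% for PR5 in the mutant, against 11.3% for PR1, 20.7% for PR2 and 21.3% for PR5 in the wild type. PAD4 had 9.74% in the mutant and 17.2% in the wild type, while EDS1 had 6.18% in the mutant and 3.30% in the wild type, and ICS1 13.2% and 11.8%. With 3 arrays per genotype these differences in spread were not tested.

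Part of the spread was shared between genes. Wild-type replicate 3 was the highest wild-type array for 5 of the 6 genes, EDS1 being the exception, while it was highest for 31.7% of all tested probe sets. It lay above the wild-type mean by 0.32 for PR2, 0.31 for PR5, 0.27 for PAD4, 0.18 for PR1 and 0.15 for ICS1 on the log2 scale. In the mutant, replicate 3 was the highest array for PR5, ICS1, PAD4 and EDS1, and replicate 2 for PR1 and PR2. Over all tested probe sets, mutant replicate 3 was highest for 30.6% and mutant replicate 2 for 36.7%. Without wild-type replicate 3 the rises were 4.10-fold for PR1, 3.81-fold for PR2, 3.09-fold for PR5, 2.35-fold for ICS1, 1.58-fold for PAD4 and 1.44-fold for EDS1.

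**Figure D3:**
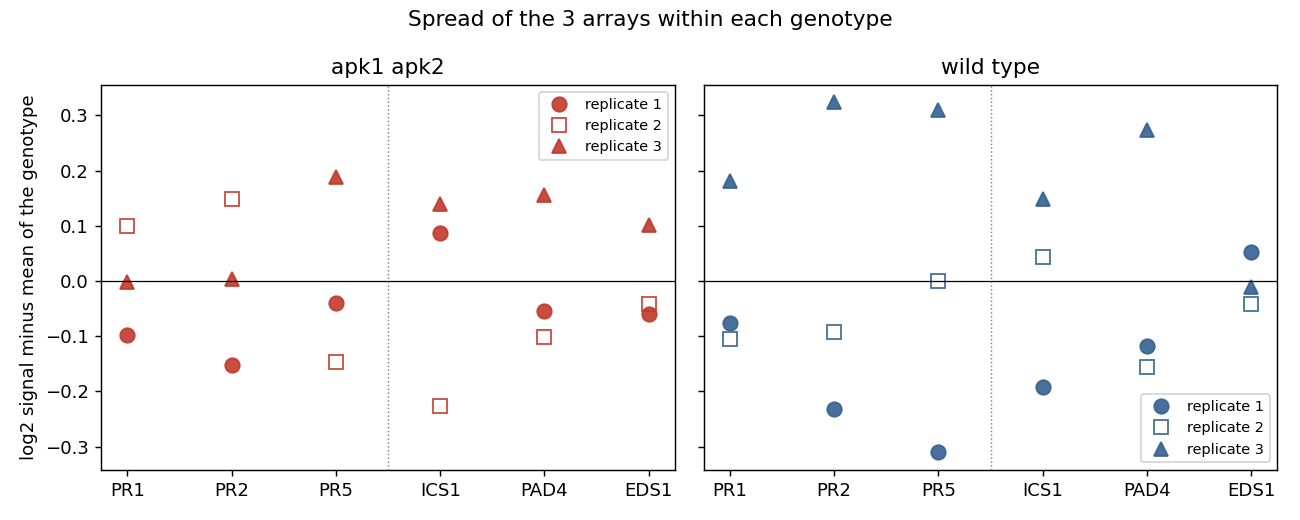
Log2 signal of each array minus the mean of its genotype, for the 3 markers and the 3 upstream genes, with apk1 apk2 in the left panel and wild type in the right. Wild-type replicate 3 (triangles) is above the other wild-type arrays for every gene but EDS1, and mutant replicate 1 is highest for no gene.

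Other genes of the pathway were read from 8 lists, which together held 103 genes besides these 6. The probe table named 20 of them, and 16 had enough signal. Of these 16, 8 rose, 0 fell and 8 were not called (limma, adjusted p under 0.05). The share called higher was 50%, against 5.79% of all tested probe sets, and the median log2 change was 0.48, against −0.02 over all tested probe sets. These values include OSM34, which passed the low-signal filter only through its mutant arrays, so its rise was built into its entry. At an unadjusted limma p under 0.05, 10 were higher and 0 lower. The share of all tested probe sets at that unadjusted threshold is not given here, so this count has no background. The genes named by the table are a minority of each list, and NPR1, the TGA factors and the genes for salicylate transport are among those with no value here. So is SOT12, a sulfotransferase that can use PAPS to modify salicylate.

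On the list of PR proteins and relatives, both other tested genes rose, against 5.79% of all tested probe sets called higher. CHI (AT2G43570), annotated as a chitinase, gave 635, 651 and 765 in the double mutant, against 120, 112 and 147 in the wild type. It rose 5.43-fold (95% interval 4.58 to 6.45, limma adjusted p = 3.41e-08), more than any of the 3 PR markers. OSM34, an osmotin-like protein of the same thaumatin family as PR5, gave 53.8, 83.5 and 167 in the mutant, against 1.06, 1.28 and 8.81 in the wild type. All wild-type arrays lay below the low-signal limit, so its rise was at least 5.28-fold, measured against that limit. OSM34 entered the test only through its mutant arrays, so a rise was built into its entry.

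Of 3 tested genes of systemic acquired resistance, the spread of resistance from infected to healthy leaves, 2 rose. The share called higher was 5.79% over all tested probe sets. SARD4, an enzyme of pipecolic acid synthesis, gave 215, 251 and 325 in the mutant, against 150, 153 and 128 in the wild type, a 1.82-fold rise (95% interval 1.48 to 2.23, limma adjusted p = 0.00119). The lectin-like LLP1 rose 1.27-fold (adjusted p = 0.0124), and its call ended without wild-type replicate 2 (0.0712) or wild-type replicate 3 (0.0637), without the low-signal filter (0.0704) and without the variance trend (0.0908). DIR1-like, a relative of the lipid transfer protein DIR1, averaged 488 ± 64.0 in the mutant and 559 ± 62.0 in the wild type (SD, n = 3 each, limma adjusted p = 0.309).

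Among 6 tested other salicylate-responsive genes, 4 rose, against 5.79% of all tested probe sets called higher. GRX480, a glutaredoxin that interacts with TGA factors, gave 51.7, 77.9 and 73.6 in the mutant, against 16.2, 29.5 and 29.9 in the wild type, a 2.75-fold rise (95% interval 1.90 to 3.99, limma adjusted p = 0.00176). Its lowest wild-type array was under the low-signal limit. AT1G21520 rose 2.76-fold and AT1G13470 2.46-fold. The rise of AT5G55450 was 1.38-fold (adjusted p = 0.00617), and it missed the threshold without the variance trend (0.0680). AT3G22240 averaged 7116 ± 749 in the mutant and 6758 ± 696 in the wild type, and AT3G60420 averaged 324 ± 70.7 in the mutant and 245 ± 12.8 in the wild type (SD, n = 3 each). AT3G60420 was not called with all arrays (limma adjusted p = 0.0977) but was without mutant replicate 2 (0.00477). With any other single array left out, its adjusted p was 0.153 to 0.335.

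Of 5 other tested genes, which were WRKY factors, relatives and partners of EDS1 and a salicylate-modifying enzyme, 0 were called with limma. Over all tested probe sets, 5.79% were called higher and 5.55% lower. At an unadjusted limma p under 0.05 there was 1, WRKY53, again with no share over all tested probe sets beside it. WRKY53, a transcription factor of defence and leaf ageing, gave 88.9, 100 and 127 in the mutant, against 62.2, 55.1 and 104 in the wild type (limma adjusted p = 0.119). Wild-type replicate 3 was again the highest wild-type array, and without it the adjusted p was 0.0109. With any other single array left out, the limma adjusted p of WRKY53 was 0.0828 to 0.353. WRKY6 averaged 20.3 ± 7.60 in the mutant and 20.5 ± 5.92 in the wild type (SD, n = 3 each). SAG101, which forms a separate complex with EDS1, averaged 51.1 ± 1.02 in the mutant and 50.3 ± 8.69 in the wild type, a fold of 1.03 (95% interval 0.804 to 1.31, limma adjusted p = 0.926). EDS1B (AT3G48080), the neighbouring copy of EDS1, averaged 84.8 ± 14.8 in the mutant and 69.1 ± 16.4 in the wild type (limma adjusted p = 0.334). Because the EDS1 genes are close copies, probes of one may also bind transcripts of the other, which was not tested. UGT76B1, a glucosyltransferase of salicylate, averaged 45.9 ± 7.11 in the mutant and 33.8 ± 11.3 in the wild type (limma adjusted p = 0.255). The other 3 named enzymes of salicylate modification, UGT74F1, BSMT1 and UGT71C3, had too little signal to be tested.

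**Figure D4:**
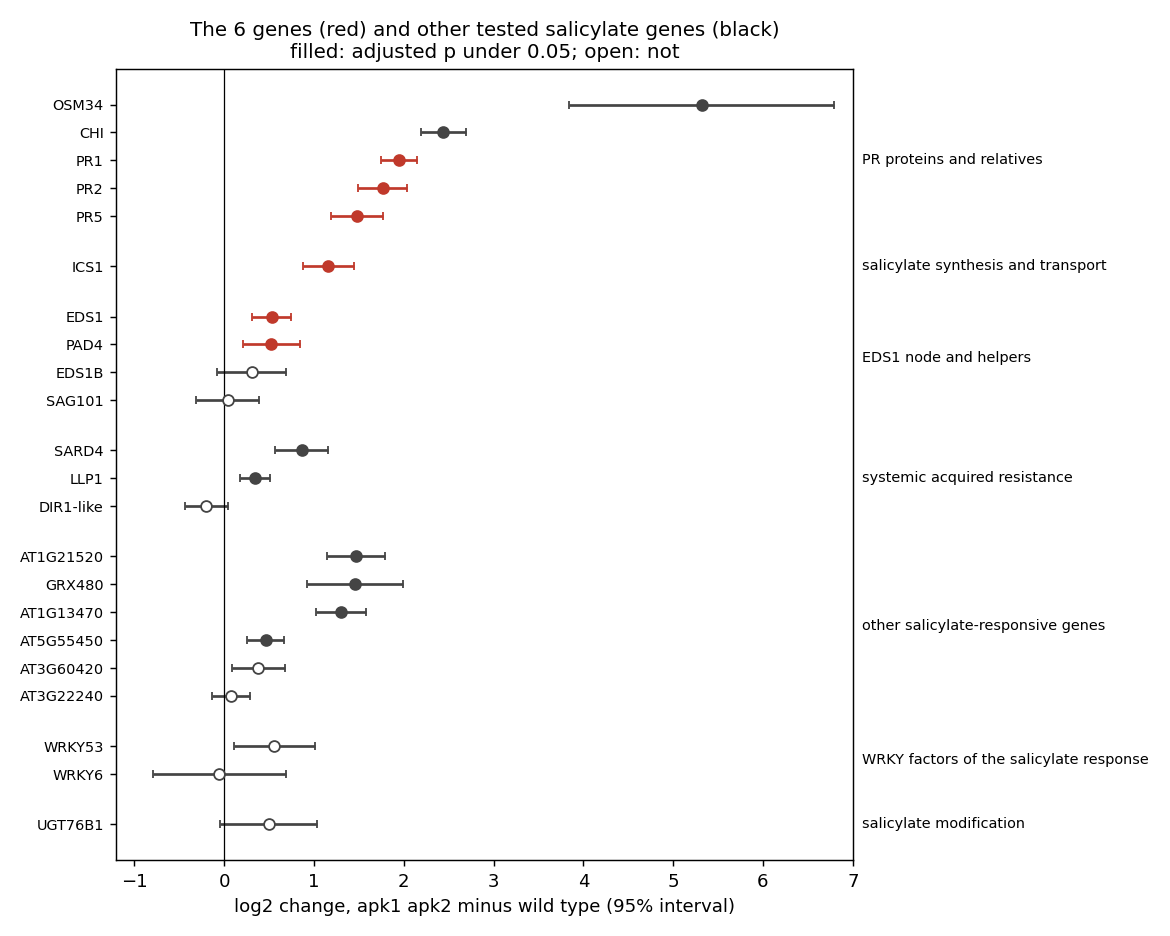
Log2 change, apk1 apk2 minus wild type, with 95% interval for the 6 genes (red) and the 16 other tested genes (black), grouped by list. Filled points passed an adjusted p under 0.05. For OSM34 the wild-type arrays lay below the low-signal limit, so its plotted position is the fitted value and not a measured fold.

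The named genes most like each of the 6 were found by Pearson's r of the log2 signal over the 6 arrays. Since the arrays form 2 groups, a high r mostly reflects a difference between the genotypes, and 124 of 792 candidates exceeded an r of 0.9 with PR1 alone. The closest to PR1 were CHI (r = 0.996) and AT3G18250 (r = 0.993), which gave 106, 122 and 145 in the mutant, against 26.4, 27.6 and 34.0 in the wild type. The closest to PR2 were AT2G44240 (r = 0.995) and AT5G48570 (r = 0.992), the FK506-binding protein ROF2. AT2G44240 gave 99.0, 108 and 111 in the mutant, against 1.01 to 5.25 in the wild type, where it lay below the low-signal limit on all 3 arrays. It became a candidate only through its mutant arrays, so a rise was built into its entry. Its r also rests partly on signals below that limit. ROF2 averaged 123 ± 6.34 in the mutant and 49.2 ± 8.15 in the wild type (SD, n = 3 each). For PR5 they were AT1G62840 (r = 0.996) and AT5G17760 (r = 0.994), with rises of 2.11-fold and 1.89-fold.

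Among the upstream genes, ICS1 was most like AT1G59930 (r = 0.992), whose probe set can also bind other transcripts by its type, and AT2G31990 (r = 0.991). PAD4 was most like AT5G39670 (r = 0.986), which gave 110, 124 and 149 in the mutant, against 63.9, 63.0 and 91.5 in the wild type. As with PAD4, replicate 3 was the highest array in both genotypes, an order that choosing genes by r over these arrays favours. AT1G67800 (r = 0.983) followed, and EDS1 was most like AT1G77370 (r = 0.999) and AT3G62580 (r = 0.997). AT3G62580 gave 490, 519 and 627 in the mutant, against 308, 282 and 272 in the wild type, a 1.89-fold rise (95% interval 1.62 to 2.20, limma adjusted p = 5.58e-05).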

How the data were processed

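RNA was read on 6 one-colour ATH1 arrays. The deposited values are linear intensities, 1 per probe set and array, made with MAS5 and GCOS per the submitters' processing notes. The authors had scaled the arrays to a common level, since their means trimmed by 2% at each end were all 100.01. This assumes equal total signal in both genotypes. Detection calls were not used here. Precision is limited by the number of arrays, 3 per genotype.

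After 64 control probe sets were left out, the test kept probe sets with a signal at or above the 40th percentile of the array on 3 or more arrays. Signals were log2-transformed with no offset and fitted with limma 3.58.1 in R 4.3.3 (lmFit, eBayes with a variance trend), with genotype as the only factor. P-values are two-sided and were adjusted by Benjamini-Hochberg over all 13848 tested probe sets, and 95% intervals are unadjusted. The fit was run on simulated data with independent normal noise for each probe set. That leaves out deviations shared between probe sets, so the run does not measure error rates in these data. No 2 arrays were identical.

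The 6 probe sets carry the gene names of the list that defined them. The platform table names 0 of the 6. Other genes were named through that table and a gene table of assembly TAIR10.1. Of the other probe sets apart from controls, those naming several genes or none were not named. Where several probe sets named 1 gene, the brightest on average was used. Called genes of the lists were named, with up to 3 uncalled ones per list, and for each of the 6 genes the 2 named probe sets with the highest r whose log2 range was at least 0.5 times as wide. The 6 genes and the lists were chosen with earlier results of these data known. Alternatives were an offset of 16, quantile normalization, no low-signal filter, no variance trend, the replicate number as a block, and each array left out. No sequences were used here.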

Additional observations from a re-analysis of the deposited data

How the results depend on the processing

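All alternatives were planned, and in each of 11 the 6 genes stayed higher in the double mutant. Every mutant array lay above every wild-type array for each gene, so leaving out an array or adding an offset could not reverse this. Dropping the filter or the variance trend, or adding the block, left the fitted change as it was. Only quantile normalization could have changed the direction. PR1, PR2, PR5, ICS1 and EDS1 passed the threshold in all 11. With 1 array left out, the log2 change ranged from 1.89 to 2.03 for PR1, 1.65 to 1.93 for PR2, 1.32 to 1.63 for PR5, 1.06 to 1.27 for ICS1, 0.48 to 0.56 for EDS1 and 0.45 to 0.66 for PAD4. The PAD4 change of 0.52 also missed the threshold without the low-signal filter (adjusted p = 0.0548) and without the variance trend (adjusted p = 0.0847). Both settings left its value as it was. The 1571 called probe sets (802 higher, 769 lower) became 880 (507 and 373) without the variance trend and 1029 to 1585 with 1 array left out. The cause of these drops was not tested. Of the 16 other pathway genes, OSM34 included, 6 to 10 rose and 0 fell under the alternatives. The count was 6 without the variance trend, where 507 of 13848 tested probe sets were called higher. It was 10 with the replicate number as a block, where 883 of 13848 were called higher.

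The labels give both genotypes replicate numbers 1 to 3. Deviations from the genotype means correlated at 0.08, 0.08 and 0.11 between arrays of the same number and at −0.08 to −0.003 between different numbers. The deviations within a genotype cancel out by construction, so positive values for the same number bring negative ones for different numbers. The small positive values are a hint from the data and not the design, so the arrays were not treated as paired. With the replicate number as a block, 1789 probe sets were called (883 higher, 906 lower), all 6 genes passed, and WRKY53 (adjusted p = 0.0195) and AT3G60420 (adjusted p = 0.0328) also passed.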
